A study of Neurospora crassa with 12 samples.

Results

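The sugar transporter genes of *Neurospora crassa* described here are 9 genes listed by their NCU identifiers, out of the 9730 genes in the count tables: glt-1 (NCU01633), hgt-1 (NCU10021), NCU04963, rco-3 (NCU02582), cdt-1 (NCU00801), cdt-2 (NCU08114), NCU07607, NCU00821 and NCU05897. Fungi bring sugars into the cell through carrier proteins of the plasma membrane, and *N. crassa* is known for a low-affinity glucose system used when the sugar is plentiful and a high-affinity system used when it is scarce. Cellodextrin transporters carry the short glucose chains that cellulases release from plant cell walls. Sucrose, the carbon source in these cultures, can be split by invertase into glucose and fructose before uptake.

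In the RefSeq annotation of the NC12 assembly the 9 genes lie on 4 of the chromosomes. On chromosome I are cdt-2 (318873 to 321079), rco-3 (2804910 to 2808507), NCU00821 (7056000 to 7058684) and cdt-1 (7121829 to 7125021), and glt-1 is on chromosome II (2887726 to 2890393). Chromosome IV holds NCU07607 (239980 to 242931) and NCU04963 (872084 to 874450), and chromosome VII holds hgt-1 (1305454 to 1307833) and NCU05897 (4200217 to 4202741). Each span is that of the whole gene, and counts were given for whole genes.

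RNA-seq libraries of 4 groups were compared, with 3 biological replicates each, called libraries I, II and III. They were labelled Δpac-3 in low-Pi (10 µM inorganic phosphate), Δmus-52 in low-Pi, Δpac-3 in high-Pi (10 mM) and Δmus-52 in high-Pi. The gene pac-3 codes for the transcription factor of pH signaling, and mus-52 for a protein of DNA end joining whose loss eases gene replacement. By the study's methods the bar gene took the place of the pac-3 reading frame in a mus-52 knockout, so that Δmus-52 was the control strain and the mus-52 deletion was common to all groups. Conidia came from cultures of 10 days for Δpac-3 and of 5 days for Δmus-52, and their germination in sucrose medium (44 mM, with citrate at 50 mM to hold pH 5.4) took 5 h at 30 °C. The effects of the strain and of the age of its conidial culture cannot be told apart in these libraries.

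The libraries held between 20240314 and 82211503 counts. The gene mus-52 went against a label: it had between 0 and 1.03 CPM (counts scaled to the depth of the library) in the Δpac-3-labelled libraries and between 19.8 and 24.7 CPM in the Δmus-52-labelled ones, where it should be missing. The 1.03 CPM are 36 counts in library III of Δpac-3 high-Pi, and no other Δpac-3-labelled library was above 0.131 CPM. The gene pac-3 was lower where its label says, with 129.6 to 181.6 CPM in the Δpac-3-labelled libraries and 354.6 to 518.0 CPM in the Δmus-52-labelled ones. These are 0.29 and 0.39 of the Δmus-52 level in low- and high-Pi, more than a replaced reading frame should leave, and which part of the gene they come from was not tested. Directions are therefore those of the libraries as labelled, which differ in mus-52 as well as in pac-3. The conidial genes con-6, con-8, con-10 and eas, taken as markers of spores, were counted in every library. They summed to between 101 and 463 CPM in the Δpac-3-labelled libraries and 12.6 to 40.2 CPM in the Δmus-52-labelled ones in low-Pi, and in high-Pi to 36.4 to 184 CPM in the Δpac-3-labelled libraries and 25.3 to 29.2 CPM in the Δmus-52-labelled ones. In the Δpac-3-labelled libraries most of the sum was eas. The genes did not all move with it: con-6 did not pass in either condition, and in high-Pi it had 5.45, 3.74 and 19.6 CPM in the Δpac-3-labelled libraries, against 19.2, 15.1 and 14.8 CPM in the Δmus-52-labelled ones (log2 fold change -0.75, edgeR adjusted p = 0.322). In the annotation con-6 overlaps NCU08768, so that reads of that gene could be among its counts. The libraries of the strains also overlapped for con-10 in both conditions. In low-Pi con-10 passed (1.54, edgeR adjusted p = 0.0404), but in only 2 of 6 fits without a library. In high-Pi it did not pass (1.58, edgeR adjusted p = 0.0813). The part of the conidial genes in the differences between the strains was not tested. With less RNA from a gene in a culture, fewer cells making it and less of it per cell cannot be told apart.

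CPM were computed from the raw counts with TMM scaling over the 12 libraries. Fold changes are edgeR log2 fold changes with their standard errors (SE), and adjusted p-values come from edgeR's quasi-likelihood test with the Benjamini-Hochberg procedure over all genes tested. A gene passed the test at an adjusted p below 0.05 and was called modulated if its log2 fold change was also at least 1.5 in size. All 9 transporter genes had enough counts to be tested in every comparison.

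Between the strains in low-Pi, 7 of the 9 genes passed the test, where 51.2% of all 8269 genes tested did, so that a pass was no rarity in this comparison. NCU07607, NCU04963 and cdt-1 were higher in the Δpac-3-labelled libraries (3 of 9, against 25.3% of all genes), while glt-1, hgt-1, cdt-2 and NCU00821 were lower (4 of 9, against 25.9%). Both thresholds were met by 3 of the 9, against 9.6% of all genes: 2 were modulated upward (5.28% of all genes) and 1 downward (4.32%). The libraries of the strains did not overlap for 7 of the 9, as for 59.7% of all genes. The median log2 fold change of the 9 was -0.13, beside 0.02 over all genes tested. In high-Pi, 5 of the 9 passed, against 35.4% of 8284 genes: NCU07607, NCU04963 and cdt-1 were again higher (18.8% of all genes were), and glt-1 and cdt-2 lower (16.6%). Both thresholds were met by 2 of the 9, against 9.14% of all genes, and both of them upward (7.24% upward and 1.9% downward over all genes). The strains did not overlap for 5 of the 9, against 51.8% of all genes. The median of the 9 was 0.47 in high-Pi, beside -0.01 over all genes tested. It is the value of hgt-1, and it was 0.18 without library III of Δpac-3 high-Pi, 0.31 without library II of Δmus-52 high-Pi, and 0.72, 0.89 and 0.76 without library III of Δmus-52, library I of Δpac-3 and library II of Δpac-3. In low-Pi it lay between -0.19 and -0.06 as single libraries were left out, nearest 0 without library I of Δpac-3. The strain comparisons of the conditions use separate libraries. The 9 genes were chosen with earlier results of these data known, so that counts of the 9 beside shares of all genes are a description.

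**Figure D1:**
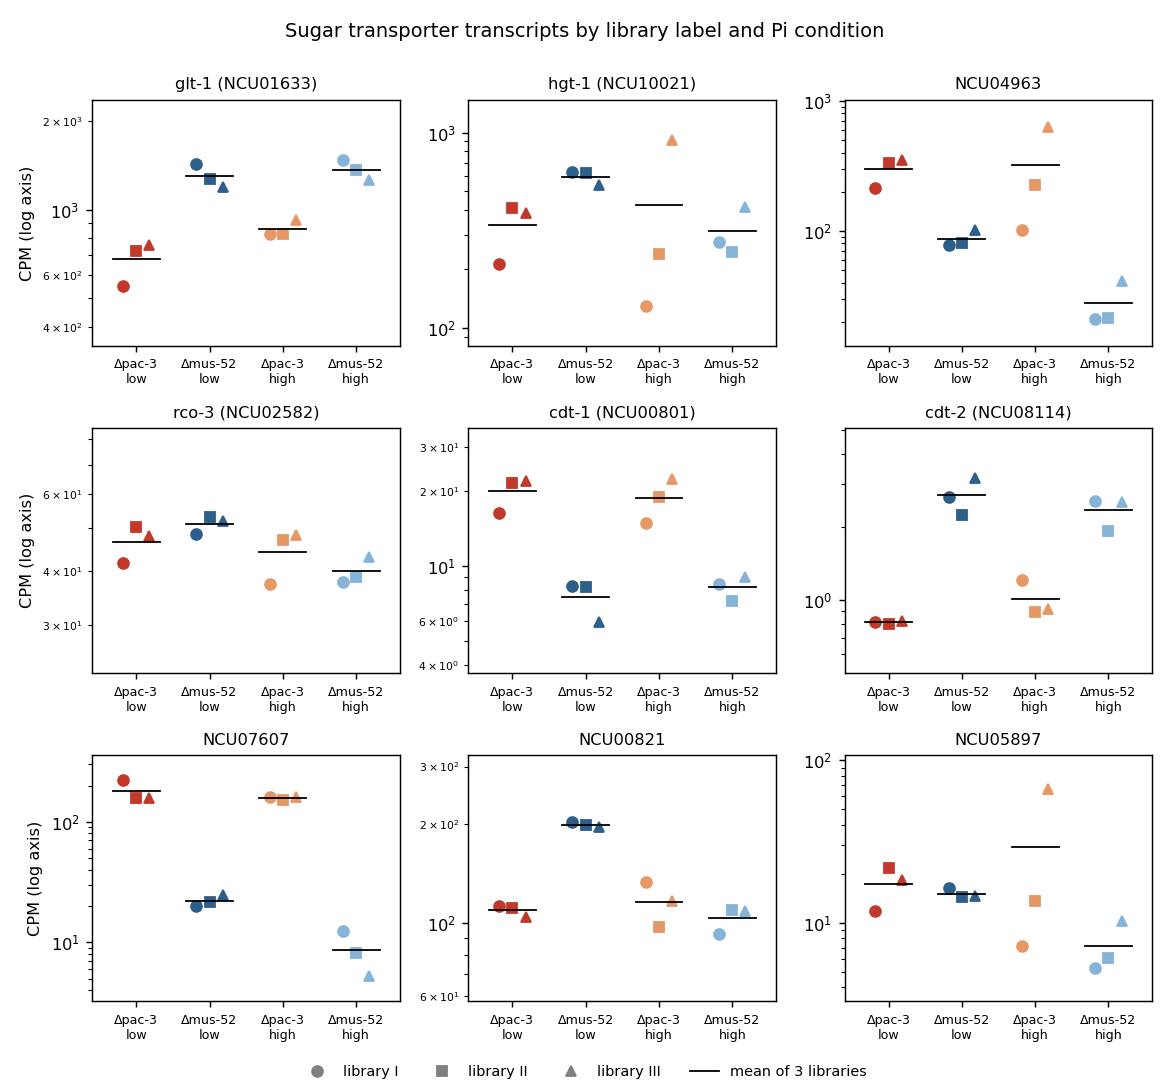
CPM (log axis) of each sugar transporter gene in each library, with 1 panel per gene, a symbol per replicate and a line at the mean of 3 libraries. NCU07607 lies between 152.8 and 222.0 CPM in every Δpac-3-labelled library and at or below 24.5 CPM in every Δmus-52-labelled library, while hgt-1, NCU04963 and NCU05897 spread widely among the Δpac-3 high-Pi libraries.

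The glucose carriers are taken first. The low-affinity glucose transporter gene glt-1 was lower in the Δpac-3-labelled libraries in both conditions. In low-Pi it had 552, 722 and 759.7 CPM in libraries I, II and III labelled Δpac-3, against 1435, 1271 and 1196 CPM in the Δmus-52-labelled ones. In the high-Pi cultures the values were 829.9, 828 and 923 CPM for Δpac-3 and 1472, 1361 and 1262 CPM for Δmus-52. Every Δpac-3-labelled library lay below every Δmus-52-labelled library in both conditions. The log2 fold change was -0.93 (SE 0.14, edgeR adjusted p = 0.000302) in low-Pi and -0.65 (SE 0.12, edgeR adjusted p = 0.00583) in high-Pi, which is 1.91-fold and 1.57-fold lower. The difference between these effects did not pass (interaction -0.30, SE 0.18, edgeR adjusted p = 0.32).

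The high-affinity glucose transporter gene hgt-1 behaved otherwise. In low-Pi it had 212, 411 and 389 CPM in the Δpac-3-labelled libraries and 627, 619 and 539.9 CPM in the Δmus-52-labelled ones, with no overlap (log2 fold change -0.81, SE 0.21, edgeR adjusted p = 0.00944). This call was lost when the fit took in all 12 libraries (edgeR adjusted p = 0.245). In high-Pi it reached 129.7, 238.5 and 914 CPM in the Δpac-3-labelled libraries, a range of 7.05-fold, and 277, 245 and 417 CPM in the Δmus-52-labelled ones. Libraries I and II labelled Δpac-3 lay below all the Δmus-52-labelled ones in high-Pi, and library III lay above them all. The log2 fold change was 0.47 (SE 0.65, edgeR adjusted p = 0.594), and without that library III it was -0.74, so that the direction in high-Pi rests on 1 library.

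NCU04963, annotated as a high-affinity glucose transporter, was higher in the Δpac-3-labelled libraries in both conditions. In low-Pi it had 213, 329.8 and 353 CPM in the Δpac-3-labelled libraries, against 78.0, 79.9 and 102 CPM in the Δmus-52-labelled ones. High-Pi gave 102, 225 and 631 CPM in the Δpac-3-labelled libraries, against 20.9, 21.2 and 40.9 CPM in the Δmus-52-labelled ones. Every Δpac-3-labelled library lay above every Δmus-52-labelled library in the same condition, in high-Pi with a 6.21-fold range among the Δpac-3 libraries themselves. The gene was modulated in both conditions, with log2 fold changes of 1.80 (SE 0.19, edgeR adjusted p = 3.36e-05) in low-Pi and 3.55 (SE 0.67, edgeR adjusted p = 0.00666) in high-Pi. Without library III of Δpac-3 high-Pi the high-Pi value was 2.58 and the gene was still modulated.

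The gene rco-3 codes for a transporter-like protein that takes part in glucose sensing, and its log2 fold changes between the strains were the smallest of the 9 in both conditions. It had 41.6, 50.3 and 48.0 CPM in the low-Pi Δpac-3-labelled libraries, against 48.5, 53.1 and 52.02 CPM in the Δmus-52-labelled ones. The high-Pi values were 37.2, 47.1 and 48.2 CPM for Δpac-3 and 37.7, 38.7 and 43.1 CPM for Δmus-52. The groups overlapped in both conditions, and neither log2 fold change passed (-0.13 with SE 0.10 in low-Pi, 0.17 with SE 0.14 in high-Pi). Scaling by total counts turned the sign of the low-Pi value.

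The cellodextrin transporter genes cdt-1 and cdt-2 moved in opposite directions. In low-Pi cdt-1 had 16.3, 21.4 and 21.9 CPM in the Δpac-3-labelled libraries, against 8.27, 8.23 and 5.93 CPM in the Δmus-52-labelled ones. Its high-Pi values were 14.9, 18.9 and 22.3 CPM for Δpac-3, against 8.45, 7.26 and 9.005 CPM for Δmus-52. The groups did not overlap in either condition, and cdt-1 rose by 1.40 (SE 0.17, edgeR adjusted p = 8.43e-05) in low-Pi and by 1.20 (SE 0.19, edgeR adjusted p = 0.00355) in high-Pi on the log2 scale, short of the modulation threshold. Without library I of Δpac-3 low-Pi the low-Pi value was 1.52, past it. The gene overlaps NCU10770 in the annotation, and since the use of strand in counting is not given in the sources used here, reads of that gene could be among its counts.

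The counts of cdt-2 were the lowest of the 9. In low-Pi it had 67, 18 and 24 counts in the Δpac-3-labelled libraries, or 0.81, 0.80 and 0.82 CPM, against 115, 63 and 63 counts, or 2.66, 2.24 and 3.19 CPM, in the Δmus-52-labelled ones. The high-Pi counts were 37, 30 and 32 counts in the Δpac-3-labelled libraries, or 1.21, 0.90 and 0.92 CPM, against 149, 50 and 99 counts, or 2.55, 1.93 and 2.53 CPM, in the Δmus-52-labelled ones. Again the groups did not overlap, with every Δpac-3-labelled library the lower. The log2 fold change was -1.71 (SE 0.24, edgeR adjusted p = 0.000215) in low-Pi, where the gene was modulated, and -1.21 (SE 0.25, edgeR adjusted p = 0.00985) in high-Pi, where it passed the test and not the fold threshold. The difference between these effects did not pass (interaction -0.52, SE 0.32, edgeR adjusted p = 0.306).

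NCU07607, annotated as a sugar transporter, had the largest fold change of the 9 in both conditions. The study had already reported it as up-regulated in both Pi conditions, from these same libraries. In low-Pi it had 222.0, 158.9 and 158.6 CPM in the Δpac-3-labelled libraries, against 20.1, 21.7 and 24.5 CPM in the Δmus-52-labelled ones. High-Pi values were 162, 152.8 and 159 CPM for Δpac-3, against 12.5, 8.11 and 5.22 CPM for Δmus-52. No Δmus-52-labelled library came near the Δpac-3-labelled ones, and the gap was wider in high-Pi, where the Δmus-52 libraries were lower than in low-Pi. The difference between the strains was 8.20-fold in low-Pi and 18.5-fold in high-Pi, and it passed without any 1 of the libraries of either comparison. The log2 values were 3.04 (SE 0.15, edgeR adjusted p = 2.43e-07) and 4.21 (SE 0.31, edgeR adjusted p = 0.000231).

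NCU00821, for which no role is given here, differed between the strains in low-Pi. It had 113, 111 and 104 CPM in the low-Pi Δpac-3-labelled libraries, against 203, 199 and 197 CPM in the Δmus-52-labelled ones, a narrow spread on both sides (log2 fold change -0.86, SE 0.08, edgeR adjusted p = 1.35e-05). The values in high-Pi were 134, 97.4 and 117 CPM for Δpac-3 and 92.7, 109.7 and 109.2 CPM for Δmus-52. There the groups overlapped and the log2 fold change of 0.17 did not pass (SE 0.15, edgeR adjusted p = 0.385).

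NCU05897, annotated as an l-fucose permease, passed in neither condition. That name comes from the study's lists of modulated genes, so that the study, which used DESeq2, had called the gene modulated. It had 11.9, 21.7 and 18.2 CPM in the low-Pi Δpac-3-labelled libraries, against 16.3, 14.3 and 14.7 CPM in the Δmus-52-labelled ones. Its high-Pi values for Δpac-3 were 7.15, 13.6 and 66.8 CPM, a range of 9.35-fold, against 5.28, 6.10 and 10.3 CPM for Δmus-52. The groups overlapped in both conditions. The log2 fold change was 0.19 (SE 0.20, edgeR adjusted p = 0.458) in low-Pi and 2.04 (SE 0.78, edgeR adjusted p = 0.0774) in high-Pi. The high-Pi value was 0.55 without library III of Δpac-3 high-Pi, and it passed without library I of that group (2.49, edgeR adjusted p = 0.0147). The low-Pi value passed in 1 of 6 fits without a library, that without library I of Δpac-3 low-Pi (0.40, edgeR adjusted p = 0.0174).

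**Figure D2:**
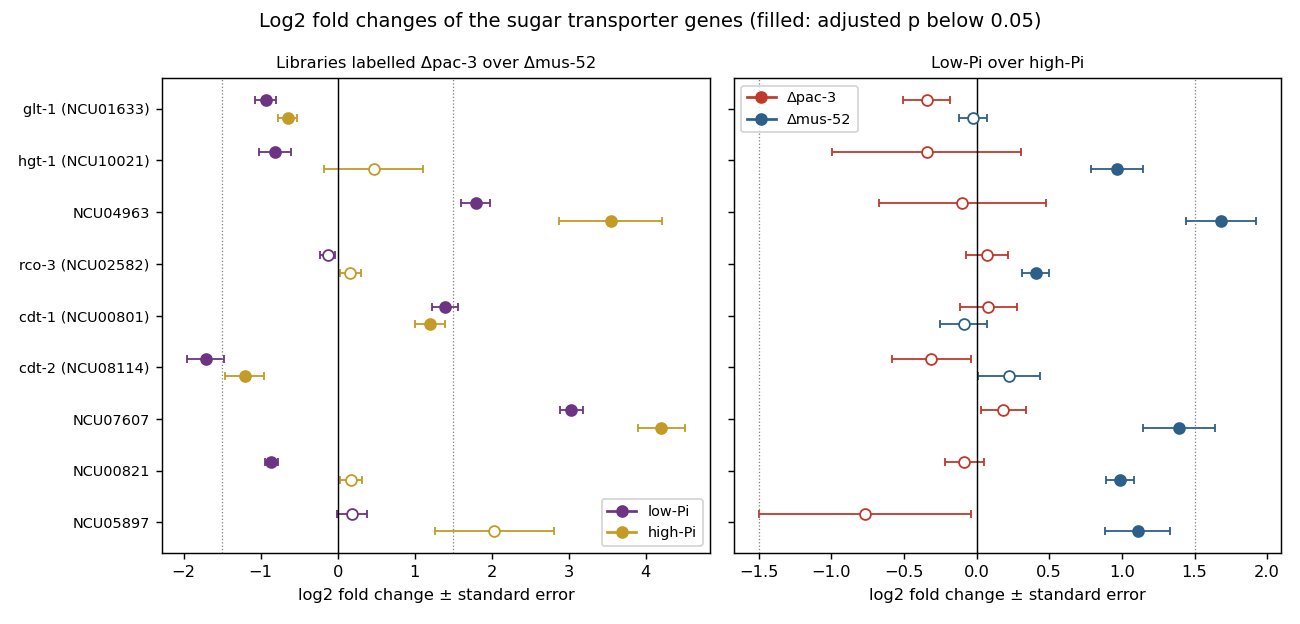
Log2 fold changes of the 9 genes with bars of 1 SE: Δpac-3-labelled libraries over Δmus-52 in each Pi condition (left), and low-Pi over high-Pi within each strain label (right). Filled points have an adjusted p below 0.05 and dotted lines mark 1.5 in either direction. On the right, 6 of 9 points are filled for Δmus-52 and 0 of 9 for Δpac-3.

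The response to Pi was then compared within each strain label, as low-Pi over high-Pi, where the age of the conidial culture was the same on both sides. These comparisons use the same 12 libraries as those between the strains, and are no further samples. In the Δmus-52-labelled libraries, 6 of the 9 genes passed and all 6 were higher in low-Pi, against 32.6% of 8190 genes passing in either direction and 18.1% passing as higher. The median log2 fold change of the 9 was 0.97, beside 0.01 over all genes tested. NCU04963 had 78.0, 79.9 and 102 CPM in low-Pi, against 20.9, 21.2 and 40.9 CPM in high-Pi. It rose by 1.68 on the log2 scale (SE 0.24, edgeR adjusted p = 0.000826) and was the 1 gene of the 9 called modulated, against 3.6% of all genes. Its value was 1.49, just under that threshold, without library I of Δmus-52 high-Pi, where NCU07607 met the threshold instead (1.76).

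The other 5 genes that rose in low-Pi in the Δmus-52-labelled libraries did so by less than the fold threshold. NCU07607 rose by 1.39 on the log2 scale (SE 0.25, edgeR adjusted p = 0.00275), with library III of high-Pi the lowest, and NCU05897 by 1.11 (SE 0.23, edgeR adjusted p = 0.00527). NCU00821 rose by 0.98 (SE 0.10, edgeR adjusted p = 8.3e-05) and hgt-1 by 0.97 (SE 0.18, edgeR adjusted p = 0.00314). The smallest of the 5 was that of rco-3, at 0.41 (SE 0.09, edgeR adjusted p = 0.00833). In all 6 genes each low-Pi library lay above each high-Pi library, an order found in 21.6% of all genes. In a fit of all 12 libraries hgt-1 and NCU05897 no longer passed (edgeR adjusted p = 0.233 and 0.237). The cellodextrin transporter genes and glt-1 did not pass, and their low-Pi and high-Pi libraries overlapped, with log2 fold changes of -0.09 for cdt-1, 0.23 for cdt-2 and -0.03 for glt-1.

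In the Δpac-3-labelled libraries, 0 of the 9 genes passed, as did 0% of the 8348 genes tested with edgeR. At an unadjusted p below 0.05 there were 413 genes, 4.95% of those tested, and 0 of the 9. DESeq2 called 21 genes at an adjusted p below 0.05, 0 of them among the 9. The spread among the Δpac-3 high-Pi libraries was wide for hgt-1, NCU04963 and NCU05897, with standard errors of 0.65, 0.58 and 0.73 on the log2 scale, so that the values of these genes have little precision there. It was narrower for NCU07607 (log2 fold change 0.18, SE 0.15) and NCU00821 (-0.09, SE 0.14). The low-Pi libraries of 2 of the 9, glt-1 and cdt-2, lay below their high-Pi libraries without passing, where groups did not overlap in 10.9% of all genes (-0.35 with SE 0.16, and -0.31 with SE 0.27).

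Whether the effect of the strain differed between the Pi conditions was tested by the interaction, taken as the strain effect in low-Pi minus that in high-Pi in a fit of all 12 libraries. Of the 9 genes 2 passed, both with a negative value, against 10.5% of 8465 genes passing and 7.53% with a negative value. NCU00821 had an interaction of -1.05 (SE 0.16, edgeR adjusted p = 0.00324), and it passed in each of 12 fits that left out 1 library. NCU07607 had -1.19 (SE 0.33, edgeR adjusted p = 0.0413), and it passed in 4 of those 12 fits, with an adjusted p of up to 0.103 without library II of Δmus-52 high-Pi. For NCU04963 (-1.76, SE 0.71, edgeR adjusted p = 0.132), NCU05897 (-1.85, SE 0.87, edgeR adjusted p = 0.189) and hgt-1 (-1.29, SE 0.76, edgeR adjusted p = 0.295) the estimates were as large or larger, and they did not pass. Without library I of Δpac-3 high-Pi, NCU04963 (-2.18, edgeR adjusted p = 0.0145) and NCU05897 (-2.32, edgeR adjusted p = 0.0307) passed as well. Without library III of that group their values were -0.80 and -0.37.

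Levels were compared between the genes after division by the annotated length of each gene, introns included, and scaling to the same sum in each library. On this scale the level of glt-1 was the highest of the 9 in each group on average, at 613 ± 136 in Δpac-3 low-Pi, 1055 ± 109 in Δmus-52 low-Pi, 786 ± 33.1 in Δpac-3 high-Pi and 1033 ± 43.8 in Δmus-52 high-Pi (SD, n = 3 libraries). The level of cdt-2 was the lowest in each group, between 0.88 and 2.64. In the Δpac-3 high-Pi group the levels of glt-1 and hgt-1 overlapped between libraries, and in the other groups they lay apart. In the Δpac-3-labelled libraries the order ran on with hgt-1, NCU04963, NCU07607, NCU00821 and rco-3, where neighbours overlapped for hgt-1 and NCU04963 in both conditions and for NCU04963 and NCU07607 in high-Pi. In the Δmus-52-labelled libraries NCU00821 came next after hgt-1, and NCU07607 came only after NCU04963 and rco-3.

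The share of glt-1 in the summed level of the 9 genes was 39.1 ± 0.76% in Δpac-3 low-Pi, against 55.4 ± 1.6% in Δmus-52 low-Pi, and 46.3 ± 14.5% in Δpac-3 high-Pi, against 71.7 ± 5.85% in Δmus-52 high-Pi (SD, n = 3). NCU04963 held 19.2 ± 1.87% in Δpac-3 low-Pi, against 4.19 ± 0.90% in Δmus-52 low-Pi, and 15.6 ± 7.64% in Δpac-3 high-Pi, against 1.63 ± 0.64% in Δmus-52 high-Pi. NCU07607 held 9.80 ± 3.91% and 7.80 ± 2.83% in the Δpac-3-labelled libraries in low- and high-Pi, where the Δmus-52-labelled ones had 0.86 ± 0.14% and 0.41 ± 0.17%. The share of hgt-1 lay between 17.0 and 24.4% in Δpac-3 low-Pi and 27.6 and 29.7% in Δmus-52 low-Pi, and the groups overlapped in high-Pi. The summed level of the 9 overlapped between the strains in high-Pi, at 1282 to 2693 for Δpac-3 and 1380 to 1524 for Δmus-52. In low-Pi it lay between 1160 and 1785 for Δpac-3 and 1771 and 2056 for Δmus-52, which overlap at the edge. This depends on the scale. Summed as CPM, with TMM scaling and no division by length, the 9 did not overlap in low-Pi. They had 1383 to 1854 CPM for Δpac-3 and 2135 to 2438 CPM for Δmus-52. In high-Pi the summed CPM overlapped, at 1417 to 2882 for Δpac-3 and 1799 to 1929 for Δmus-52.

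Pairs of transporters with related roles were set against each other within a library, which takes out depth. The 4 pairs were chosen after their values were seen, and no test was made. The level of NCU04963 over that of hgt-1 was 1.01, 0.81 and 0.91 in libraries I, II and III of Δpac-3 low-Pi, against 0.13, 0.13 and 0.19 in Δmus-52 low-Pi. In high-Pi it was 0.79, 0.95 and 0.69 in the Δpac-3-labelled libraries, against 0.076, 0.087 and 0.098 in the Δmus-52-labelled ones. The ratio thus varied by 1.37-fold among the Δpac-3 high-Pi libraries, in which hgt-1 varied by 7.05-fold and NCU04963 by 6.21-fold in CPM. The ratio of cdt-1 over cdt-2 lay between 13.8 and 18.6 in Δpac-3 low-Pi, against 1.28 to 2.55 in Δmus-52 low-Pi. In high-Pi it lay between 8.52 and 16.8 for Δpac-3 and between 2.29 and 2.60 for Δmus-52. NCU07607 over glt-1 lay between 0.16 and 0.36 in the Δpac-3-labelled libraries and between 0.0037 and 0.019 in the Δmus-52-labelled ones. The ratio of hgt-1 over glt-1, the high-affinity over the low-affinity glucose transporter, overlapped between the strains in both conditions. It lay between 0.43 and 0.64 in Δpac-3 low-Pi, against 0.49 to 0.55 in Δmus-52 low-Pi, and between 0.18 and 1.11 in Δpac-3 high-Pi, against 0.20 to 0.37 in Δmus-52 high-Pi.

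**Figure D3:**
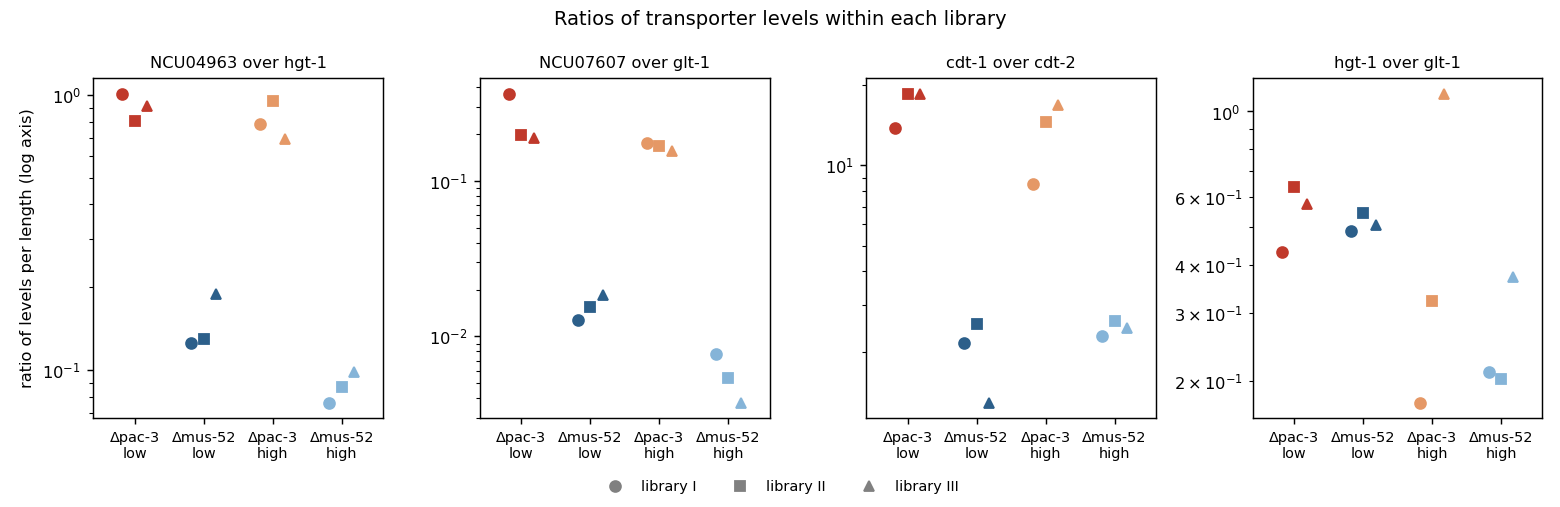
Ratio of levels per length (log axis) within each library for NCU04963 over hgt-1, NCU07607 over glt-1, cdt-1 over cdt-2 and hgt-1 over glt-1, with a symbol per replicate. In 3 of the 4 panels the 6 Δpac-3-labelled libraries lie above the 6 labelled Δmus-52, from 0.69 upward against 0.19 or less in the first panel, and in the panel of hgt-1 over glt-1 the strains overlap.

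The genes that varied together within groups were described by Pearson's correlation of log2(CPM + 0.5) after the group means were taken out, over 12 libraries that share depth and scaling. It was 0.985 for hgt-1 and NCU05897, 0.961 for NCU04963 and NCU05897 and 0.956 for hgt-1 and NCU04963. In the Δpac-3 high-Pi group all 3 genes were lowest in library I and highest in library III. So were rco-3 (37.2, 47.1 and 48.2 CPM) and cdt-1 (14.9, 18.9 and 22.3 CPM). These 2 correlated with the 3 genes at 0.66 to 0.82 within groups, on log2 CPM with a prior count of 2. The share of all genes with this order was not counted. The summed level of the conidial genes had it too (36.4, 108 and 184 CPM in libraries I, II and III), but not con-6, which was lowest in library II. The part of the conidial genes in this spread was not tested. Over the 9 libraries of the other groups the 3 values were 0.919, 0.879 and 0.825 in the same order. For NCU07607 the same measure over 12 libraries was negative with hgt-1 (-0.32), NCU04963 (-0.37) and NCU05897 (-0.33). Over the 9 libraries without Δpac-3 high-Pi these values were -0.75, -0.77 and -0.90.

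The genes whose pattern was most like that of each transporter were found by Pearson's correlation of log2 CPM over the 12 libraries, among 8464 other genes, as a description. The values follow the differences between the groups and are not independent of them. The closest to NCU04963 was NCU09771 (0.989), to NCU07607 it was NCU01319 (0.988), and to cdt-1 it was NCU07745 (0.984). For cdt-2 it was pho-5 (NCU08325), which codes for a high-affinity phosphate transporter (0.979). For rco-3 it was gh7-1 (NCU05057) (0.971), for glt-1 NCU09006 (0.961), and for NCU00821 NCU07518 (0.953). The lowest best matches were those of hgt-1 with NCU06253 (0.949) and of NCU05897 with NCU07563 (0.925).

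A list of 15 genes of sugar use and carbon control was set beside the transporters. In low-Pi 3 of the 15 were higher in the Δpac-3-labelled libraries, 9 were lower and 3 did not pass, against 25.3% higher and 25.9% lower over all genes (median log2 fold change -0.70, beside 0.02). In high-Pi 3 were higher, 3 were lower and 9 did not pass, against 18.8% and 16.6% (median -0.14, beside -0.01). With single libraries left out in high-Pi, 2 or 3 were higher. The number lower was 1 without any 1 of the Δmus-52 libraries, 2 without library II and 6 without library III of Δpac-3. NCU00575, entered in the list as glucokinase, was lower in low-Pi (-0.84, edgeR adjusted p = 0.000156) and high-Pi (-0.74, edgeR adjusted p = 0.00561). It passed in 6 of 6 fits without a library in each condition, and it overlaps NCU14040 in the annotation. The gene emp-1, entered as hexokinase, was lower by less (-0.315 and -0.56), and passed in 3 of 6 such fits in each. The invertase gene inv, whose product splits the supplied sucrose, had 0.06, 0.04 and 0.10 CPM in the low-Pi Δpac-3-labelled libraries, against 1.85, 2.38 and 0.71 CPM in the Δmus-52-labelled ones (log2 fold change -4.58, SE 0.56, edgeR adjusted p = 9.59e-05). In high-Pi its log2 fold change was -2.44 (edgeR adjusted p = 0.0262), which was lost in 4 of 6 fits that left out a library and was -3.95 without library III of Δpac-3 high-Pi. The gene has few counts and overlaps NCU04264 in the annotation. Reads of inv and of that neighbor cannot be told apart without the use of strand.

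The beta-glucosidase gene gh1-1 rose by 2.02 (SE 0.11, edgeR adjusted p = 4.94e-07) in low-Pi and 2.29 (SE 0.38, edgeR adjusted p = 0.00394) in high-Pi on the log2 scale, and gh3-4, another beta-glucosidase gene, by 1.65 (SE 0.28, edgeR adjusted p = 0.000727) in low-Pi. In high-Pi gh3-4 had 0.73 (edgeR adjusted p = 0.0421), a pass that was lost in all 6 fits without a library. Of 8 regulators of carbon use in the list, 5 were lower in the Δpac-3-labelled libraries in low-Pi, against 25.9% of all genes. The carbon catabolite repressor cre-1 had a log2 fold change of -0.97, and the cellulase regulators clr-1 and clr-2 had -0.96 and -2.27. The xylanase regulator xlr-1 had -1.23 and col-26 had -0.70. In high-Pi none of these 5 passed. Their values there were -0.14 for cre-1, -0.33 for clr-1, 0.79 for clr-2, -0.67 for xlr-1 and -0.40 for col-26. The interaction passed for cre-1 (-0.84, edgeR adjusted p = 0.00806) and clr-2 (-3.06, edgeR adjusted p = 0.00879). It also passed for ccg-1, a glucose-repressible gene (-3.12, edgeR adjusted p = 0.0012). It did not pass for clr-1 (-0.63, edgeR adjusted p = 0.0795) or xlr-1 (-0.56, edgeR adjusted p = 0.521). Nor did it pass for col-26 (-0.32, edgeR adjusted p = 0.2). The regulator vib-1 was higher in both conditions, at 0.54 and 0.87. The corepressor genes rco-1 and rcm-1 did not pass in either, with 0.19 and 0.02 in low-Pi and 0.11 and -0.30 in high-Pi. NCU09033, entered in the list as pdr-1 and not counted among the 8, did not pass either (0.09 in low-Pi, -0.08 in high-Pi).

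A further 9 transporter genes were listed by identifier. Of these 4 were higher and 3 lower in low-Pi, against 25.3% and 25.9% of all genes (median -0.02, beside 0.02), and 4 were higher and 0 lower in high-Pi, against 18.8% and 16.6% (median 0.34, beside -0.01). The median in low-Pi lay between -0.07 and 0.07 as single libraries were left out. In high-Pi 2 or 3 were higher without any 1 library, since NCU00988 passed in 1 of 6 such fits and NCU02188 in 2 of 6. Without library III of Δpac-3 high-Pi 2 were higher and 1 lower, with a median of 0.09. It was 0.60 and 0.55 without libraries I and II of that group. NCU08152 had 2.34, 3.78 and 2.97 CPM in the low-Pi Δpac-3-labelled libraries, against 0.25, 0.71 and 0.51 CPM in the Δmus-52-labelled ones (log2 fold change 2.67, edgeR adjusted p = 0.000206). In high-Pi its log2 fold change was 4.30 (edgeR adjusted p = 0.00343), from 3.68 to 4.91 as single libraries were left out. There it had 1.01 to 3.10 CPM in the Δpac-3-labelled libraries, against 0.034 to 0.20 CPM in the Δmus-52-labelled ones. The latter rest on 14 counts in all, so that the size of this fold change has little precision. NCU04537, annotated as a monosaccharide transporter, had 60.3, 97.2 and 350.0 CPM in the high-Pi Δpac-3-labelled libraries, against 20.8, 24.4 and 24.9 CPM in the Δmus-52-labelled ones (log2 fold change 2.87, edgeR adjusted p = 0.0111, and 1.78 without library III of Δpac-3). It had its highest value in the same library as hgt-1, NCU04963 and NCU05897. NCU00988 was higher in low-Pi (2.19, edgeR adjusted p = 0.000874) at under 1 CPM in every library, and it overlaps NCU00987 in the annotation.

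**Figure D4:**
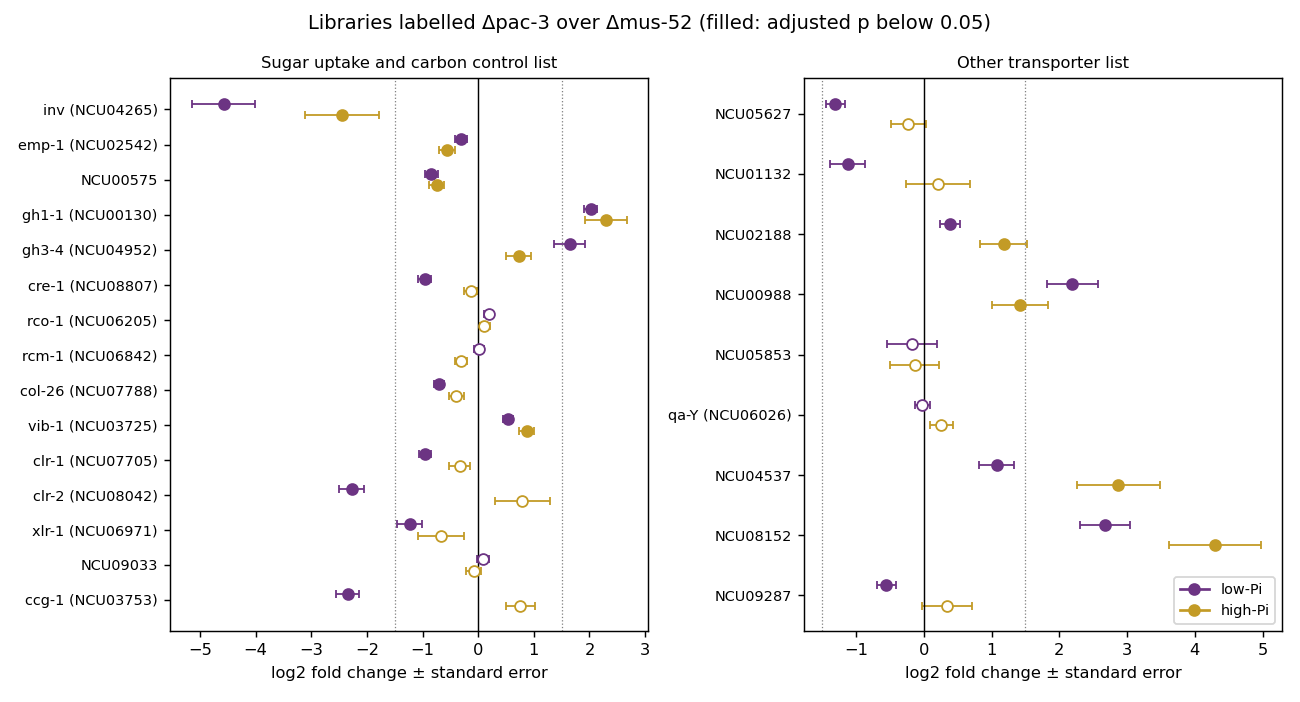
Log2 fold changes (Δpac-3-labelled libraries over Δmus-52, bars of 1 SE) in low-Pi and high-Pi for the 15 genes of sugar use and carbon control (left) and the 9 further transporter genes (right). Filled points have an adjusted p below 0.05, and dotted lines mark 1.5 in either direction. The low-Pi points of clr-2 and ccg-1 lie at -2.27 and -2.35, and their high-Pi points lie above 0 without passing.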

How the data were processed

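Total RNA of germinated conidia was sequenced by the authors as paired-end reads of 100 bp and trimmed at a Phred score of 20. Per the labels and the study's methods, reads were checked with FastQC 0.11.7 and mapped with Bowtie2 2.3.4, and the authors deposited unnormalized raw counts for each gene in each library. The study's methods point to the NC12 assembly for the genome. The counting tool and the use of strand are not given in the sources used here. Tables of the authors' own strain comparison (a mean per strain, fold change, log2 fold change, p and adjusted p) were not used.

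Counts of the 6 libraries of a comparison were fitted in R 4.3.3 with edgeR 4.0.16 (limma 3.58.1), after filterByExpr (minimum count 10, minimum total 15) and TMM scaling, with a prior count of 0.125, and compared with the quasi-likelihood F test. The thresholds (adjusted p 0.05, log2 fold change 1.5) are those of the study's methods. Each SE is the size of the log2 fold change over the square root of F. The interaction was fitted on all 12 libraries and called at the adjusted p alone. DESeq2 1.42.0 served as an alternative. Other alternatives changed the scaling, the filter, the thresholds, the prior count, the libraries in the fit and a block by replicate number, and left out each library in turn. Tables and figures were made with Python 3.11.15, pandas 2.3.3, numpy 2.4.6 and matplotlib 3.10.9. The procedure was also run on simulated data in which every gene had the same dispersion. Genes or libraries that spread more than the rest were not simulated.

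The libraries held 20240314 to 82211503 counts, and the common dispersion between the strains, as a biological coefficient of variation, was 0.121 for the low-Pi fit and 0.208 for the high-Pi fit. Replicates of a group correlated at 0.968 to 0.994 across genes, and no 2 libraries agreed within sampling noise. Of the gene IDs, 9729 were found in an annotation of the NC12 assembly, which gave names, positions, lengths and overlaps. Levels per length rest on these gene lengths.

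The 9 transporter genes, the list of 15, the further 9 transporters and the 4 conidial genes were chosen with earlier results of these data known. The rule named all 9 genes, the deleted genes, the list of 15, further transporters called modulated in a strain comparison (at most 8) and the 2 genes most like each of the 9, of which the closest are printed. The further transporters were to include genes by product name. The gene annotation used here gives no product names. Those printed were taken from the study's supplementary lists of modulated genes, which were not used to choose genes, so that the 9 listed identifiers make up this list. Genes printed as annotated with a product name are thus among those the study had called modulated in these libraries. Sequences of the genes and their promoters were not used here.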

Additional observations from a re-analysis of the deposited data

Results flagged for a closer look

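The effect of the strain differed between the Pi conditions by the interaction test for 2 of the 9 transporter genes. For NCU00821 the strain effect in low-Pi minus that in high-Pi was -1.05 on the log2 scale (edgeR adjusted p = 0.00324). The strains differed by a log2 fold change of -0.86 under low-Pi, against 0.17 under high-Pi, and this difference passed in 12 of 12 fits without a library. For NCU07607 it was -1.19 (edgeR adjusted p = 0.0413), with log2 fold changes of 3.04 and 4.21, and it passed in 4 of 12 fits without a library. No explanation was tested for either gene.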

How the results depend on the processing

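Of the comparisons of the 9 genes under alternatives other than a left-out library, 269 kept direction and side of the threshold, 3 lost their pass, 3 gained one and 4 turned. Of those with a library left out, 300 kept both, 8 lost a pass, 4 gained one and 12 turned. Scaling by total counts moved the median log2 fold change of all genes to 0.19 in low-Pi and 0.25 in high-Pi, against 0.02 and -0.01 with TMM scaling, and the share of higher genes among those that passed to 68.7% and 78.9%, against 49.5% and 53.2%. With it the log2 fold change turned to 0.052 for rco-3 between the strains in low-Pi, to 0.12 for cre-1 and 0.026 for NCU05627 in high-Pi, and to 0.0044 for glt-1 in the Pi comparison of Δmus-52. With a log2 fold change of at least 1 in place of 1.5, 4 of the 9 were modulated in high-Pi, against 1328 of the 8284 genes tested. Of the 18 closest genes by Pearson's correlation, 5 were also chosen by Spearman's.

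With single libraries left out, the number of the 9 past both thresholds was 3 to 4 between the strains in low-Pi and 2 to 3 in high-Pi, and the number past the interaction test was 1 to 4. Values that turned ran from -0.01 to 0.40 for NCU05897 in low-Pi and from -0.74 to 0.89 for hgt-1 in high-Pi. In the Pi comparison of Δpac-3 they ran from -0.78 to 0.87 for hgt-1, -0.039 to 0.151 for rco-3, -0.064 to 0.227 for cdt-1, -0.52 to 0.87 for NCU04963, -0.192 to 0.026 for NCU00821 and -1.23 to 0.72 for NCU05897. In that of Δmus-52 they ran from -0.0987 to 0.0096 for glt-1 and -0.166 to 0.021 for cdt-1. None of these comparisons had passed with all its libraries. With a library left out, only NCU05897 in low-Pi passed, without library I of Δpac-3 (0.40, edgeR adjusted p = 0.0174).

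Libraries with the same replicate number deviated from their group means with correlations of -0.16 to 0.35 over all pairs of groups. Whether the numbers pair the libraries is not given in the sources used here and cannot be told from these values. The fits without a block treat the libraries as unpaired. As a hint from the data alone, all 6 libraries correlated best with their own number between the strains in low-Pi and between the conditions in Δmus-52, 4 of 6 between the strains in high-Pi and 2 of 6 between the conditions in Δpac-3. With the replicate block 7 of the 9 genes passed in low-Pi, 6 in high-Pi (NCU05897 at 1.47, edgeR adjusted p = 0.0473), 0 and 6 in the Pi comparisons of Δpac-3 and Δmus-52, and 3 in the interaction (NCU04963 at -1.59, edgeR adjusted p = 0.049). Over all genes 4377 of 8269, 2969 of 8284, 1 of 8348, 3248 of 8190 and 1117 of 8465 passed with the block, in the same order. In the Pi comparison of Δpac-3 the block turned hgt-1 to 0.11 and NCU04963 to 0.27.

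The 3 libraries of a group limit the precision, most of all in Δpac-3 high-Pi, and cdt-2 rests on 18 to 149 counts a library. Strain, conidial culture age and mus-52 counts change together. The cause of the values that depend on a setting was not tested.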
